A study of Mus musculus with 4 samples.

Results

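H19 and 8 other imprinted genes (Igf2, Dlk1, Meg3, Peg3, Mest, Grb10, Plagl1 and Peg10) were described across 4 single-cell RNA libraries from a mouse model of BRCA1-deficient breast cancer. They were taken by symbol, and all 9 were found among the 27998 genes that the 4 libraries share. They were selected on their UMI levels in these same libraries, so those levels are given as a description and carry no p-value. All mice were female, of mixed background and Trp53L/L;Brca1L/L with a Rosa26-Stop-YFP reporter. In every group an adenovirus with the keratin 8 promoter driving Cre (Ad-K8-Cre) had been injected into the milk ducts, so no library has cells without Cre delivery to the gland as a control. The groups were sorted YFP+ cells about 2 weeks after injection (1 library, called 2 weeks), sorted YFP+ cells together with CD45+ leukocytes about 5 months after injection (1 library, 5 months), and DAPI-negative live cells of a tumour mass (2 libraries, tumour 1 and tumour 2). Cre from this promoter reaches luminal cells, and YFP marks recombination of the reporter, not of Trp53 or Brca1. The labels do not say how many mice stand behind a library. Only the tumours are replicates of a group (n = 2), and their spread may be biological or technical.

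An imprinted gene is transcribed mainly from the copy inherited from 1 parent, which is set by DNA methylation laid down in the egg or sperm. H19, a long non-coding RNA read from the maternal copy, and Igf2, a growth factor gene read from the paternal copy, share enhancers on mouse chromosome 7. CTCF bound to the unmethylated maternal control region between them keeps those enhancers from Igf2. Many imprinted genes act on fetal and placental growth and are turned down in most tissues after birth, and several are found again in tumours. The counts used here do not separate the parental copies, so nothing below bears on which allele was read.

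H19 lay at chr7:142575529-142578143 on the minus strand (GENCODE annotation, GRCm38, the same build as the mm10 of the files) and was annotated as a long intergenic non-coding RNA. Igf2 lay at chr7:142650766-142666816 on the same strand, 72.6 kb away. Dlk1 (chr12:109452823-109463336) and Meg3 (chr12:109541001-109571726) formed a second neighbouring pair on the plus strand of chromosome 12, 77.7 kb apart. Peg3 lay at chr7:6703892-6730431, Grb10 at chr11:11930508-12038683, both on the minus strand, and Plagl1 at chr10:13060504-13131694, Mest at chr6:30723547-30748465 and Peg10 at chr6:4747306-4760517, all on the plus strand.

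H19 is also the host transcript of a microRNA, which is why the RefSeq (GRCm38.p6) mature sequences of miR-675 are shown, with the seed (bases 2 to 8) in capitals. Both lie within exons of annotated H19 transcripts, at chr7:142577112-142577133 and chr7:142577078-142577099 on the minus strand. The libraries tag the 3′ ends of polyadenylated RNA and give no value for the microRNA itself, and the arms have different seeds.
mmu-miR-675-5p: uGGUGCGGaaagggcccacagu
mmu-miR-675-3p: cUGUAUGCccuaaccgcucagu

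Barcodes, which stand for cells, were put into 3 classes per library. Keratin barcodes had at least 3 UMIs (unique molecules) of Krt8 and Krt18 together and no UMI of Ptprc, which encodes the leukocyte surface protein CD45. Other barcodes had fewer keratin UMIs and no Ptprc, and Ptprc barcodes had at least 1 UMI of Ptprc. This gave 1235, 503, 441 and 421 keratin barcodes at 2 weeks, at 5 months, in tumour 1 and in tumour 2, with medians of 3942, 4137, 14000.0 and 8227 UMIs. The other barcodes numbered 211, 1943, 743 and 625, and the Ptprc barcodes 7, 2390, 1528 and 734. Libraries held 6722044 to 23736366 UMIs of shared genes, and 2 to 16 barcode sequences recurred between pairs of libraries.

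The keratin class fitted its name, and the other class was mixed. Epcam, an epithelial adhesion gene, was seen in 95.1%, 97.2%, 86.4% and 92.9% of keratin barcodes at 2 weeks, at 5 months, in tumour 1 and in tumour 2. An 8-gene leukocyte list summed to 2.72 to 387 CPM (UMIs per 1000000 UMIs of the class) in keratin barcodes. In other barcodes the same sum was 79.9, 4684, 10372.8 and 2596 CPM over the libraries in that order, so leukocytes without a Ptprc UMI remain in that class. A summed level cannot tell fewer cells of a type from less RNA per cell, and the intervals below cover counting error only.

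H19 RNA came almost wholly from tumour 1. Its keratin barcodes held 2560 H19 UMIs, or 369 CPM (95% Poisson interval 355 to 384). The class had 39 UMIs (7.08 CPM, 5.03 to 9.67) at 2 weeks, 2 UMIs (0.845 CPM, 0.102 to 3.05) at 5 months and 17 UMIs (4.37 CPM, 2.54 to 6.99) in tumour 2. Of the 4046 H19 UMIs of the series, 98.5% came from tumour 1 and 63.3% from its keratin barcodes. The interval of tumour 2 overlapped those of both premalignant libraries, and the 5 months interval lay below that of 2 weeks.

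Igf2, the neighbour of H19 and a ligand of the IGF1 receptor, followed it at a far lower level. It had 37 UMIs in keratin barcodes of tumour 1 (5.33 CPM, 3.76 to 7.35) and 33 UMIs in its other barcodes (6.28 CPM), 32 of them in 1 barcode. Keratin barcodes of the 2 weeks, 5 months and tumour 2 libraries had 0 Igf2 UMIs, with upper limits of 0.669, 1.56 and 0.947 CPM. Of its 76 UMIs, 98.7% were in tumour 1.

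Peg3, a paternally expressed zinc finger gene, was the member that stood higher in both tumours. It had 44.4 CPM (308 UMIs, 39.6 to 49.7) in keratin barcodes of tumour 1 and 46.0 CPM (179 UMIs, 39.5 to 53.2) in those of tumour 2. The premalignant libraries had 7.98 CPM (44 UMIs, 5.80 to 10.7) at 2 weeks and 13.1 CPM (31 UMIs, 8.90 to 18.6) at 5 months. The tumour intervals overlapped each other and neither reached a premalignant one. Usp29, which shares a divergent promoter with Peg3 and was picked after its values were seen, had 20 UMIs (2.88 CPM) in tumour 1 and 14 UMIs (3.60 CPM) in tumour 2, and 0 UMIs in keratin barcodes of both premalignant libraries.

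Grb10, an adaptor that dampens insulin and IGF receptor signalling, was high in keratin barcodes of 1 tumour. It had 22.1 CPM (153 UMIs, 18.7 to 25.8) in tumour 1 and 1.03 CPM (4 UMIs, 0.280 to 2.63) in tumour 2, beside 6.17 CPM (34 UMIs) at 2 weeks and 5.07 CPM (12 UMIs) at 5 months. Plagl1, a paternally expressed zinc finger transcription factor, was nearly flat in keratin barcodes, with 9.07, 8.45, 7.79 and 11.04 CPM at 2 weeks, at 5 months, in tumour 1 and in tumour 2. All 4 of its intervals overlapped. Its highest class level was in Ptprc barcodes at 5 months, at 16.2 CPM (123 UMIs, 13.5 to 19.4).

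The remaining 4 members were scarce in keratin barcodes of every library. Dlk1, which encodes a transmembrane protein of the Notch ligand family, had 0 UMIs there in all 4 libraries (upper limits 0.532 to 1.56 CPM). Meg3, the maternally expressed long non-coding RNA beside it, had 0.257 to 5.62 CPM, and 31 of its 39 UMIs in tumour 1 came from 1 barcode. Mest, which encodes a hydrolase-fold protein, had 2.72 CPM at 2 weeks, 5.91 at 5 months, 0 UMIs in tumour 1 and 2.57 CPM in tumour 2. Peg10, a retrotransposon-derived gene, had 15 UMIs (2.16 CPM) in tumour 1, 1 UMI at 2 weeks and 0 in the other two libraries.

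**Figure D1:**
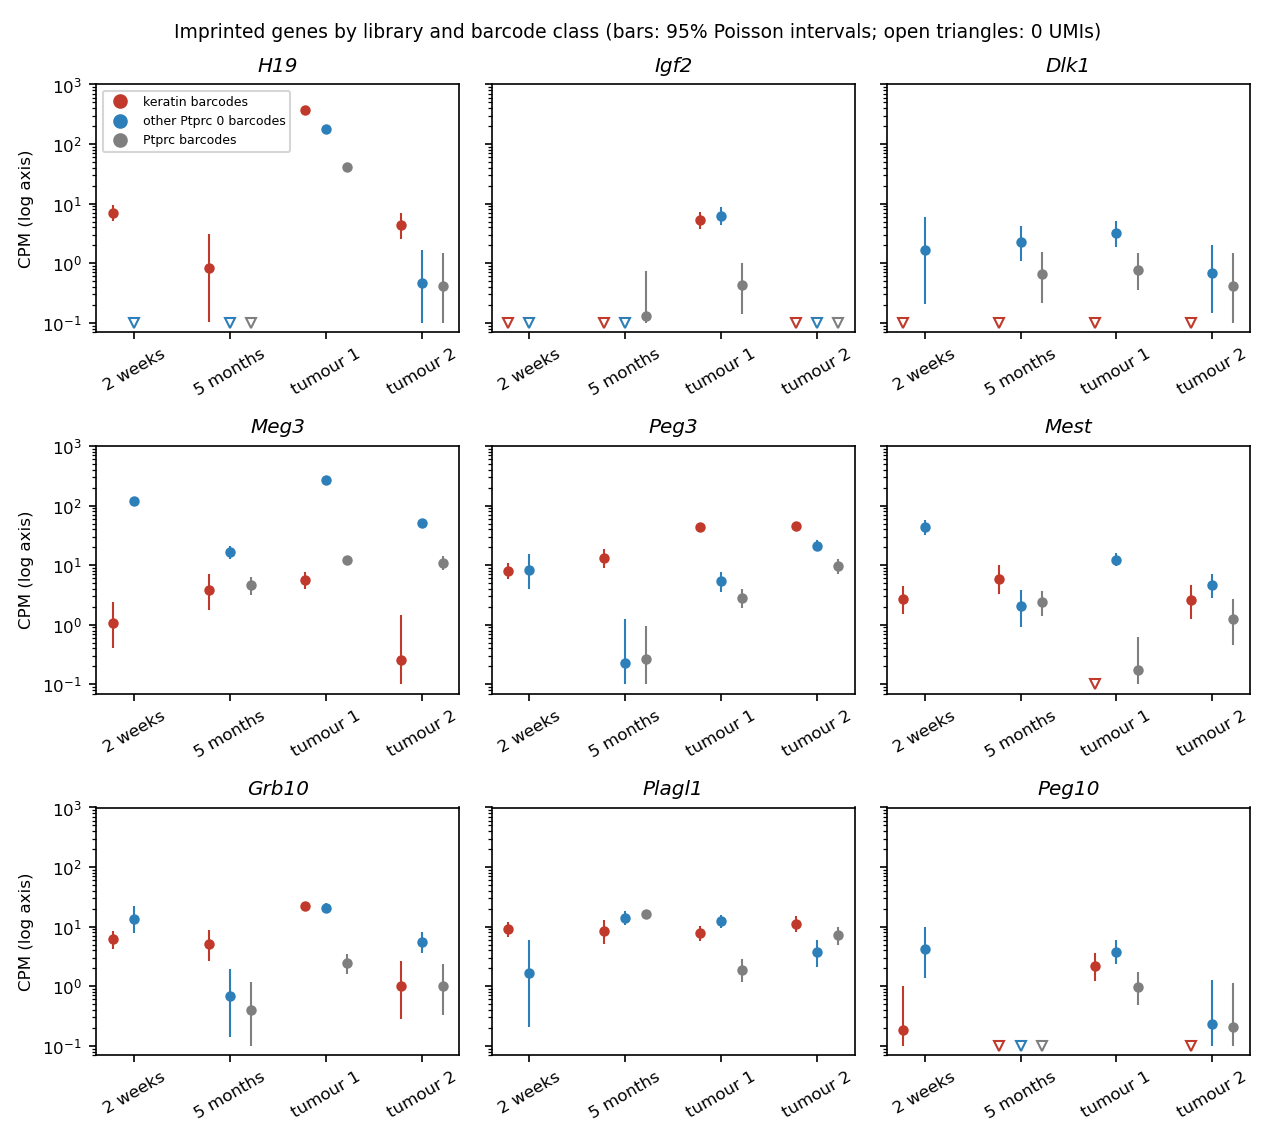
Level of each imprinted gene in CPM (vertical log axis) by library (horizontal axis) in keratin, other Ptprc 0 and Ptprc barcodes, with 95% Poisson intervals drawn down to 0.1 CPM and open triangles for 0 UMIs; the 7 Ptprc barcodes of the 2 weeks library are left out. H19 reaches 369 CPM in keratin barcodes of tumour 1 and no more than 7.08 CPM in those of the other libraries, while Meg3 is highest in other barcodes of every library.

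The libraries were then compared gene by gene in keratin barcodes. A gene was called when its CPM, after adding 1 CPM, lay at least 2-fold apart with at least 20 CPM on the higher side, and for the tumours when both lay on that side. Genes reaching 20 CPM were counted as tested.

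In the tumours against the 2 weeks library, 3 members (H19, Peg3 and Grb10) were tested and 1 was called, against a background of 17.3% of 6445 genes. Peg3 was 5.05-fold higher in tumour 1 and 5.23-fold higher in tumour 2. H19 was 45.8-fold higher in tumour 1 but 0.664-fold in tumour 2, and Grb10 was 3.22-fold and 0.283-fold, so the tumours lay on opposite sides for both genes. Against the 5 months library the same 3 members were tested and 1 was called, beside 10.5% of 6165 genes. Peg3 was 3.22-fold higher in tumour 1 and 3.33-fold higher in tumour 2. The tumour comparisons share their tumour libraries, so the calls are not separate evidence. Between 5 months and 2 weeks no member reached 20 CPM in either library, while 30.4% of 5922 genes were called.

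The tumours lay apart on H19 and Grb10 and together on Peg3. Of 3 members tested, 2 were called, H19 (log2 ratio 6.11, tumour 1 over tumour 2) and Grb10 (3.51), beside 19.1% of 5761 genes. The log2 ratio of Peg3 was -0.05. Under the rule that bars any UMI of Ptprc, Cd52, Tyrobp, Laptm5 or Coro1a (the 5-gene leukocyte rule), the ratio was 3.79 for H19 and 4.11 for Grb10. Epcam, which was lower in tumour 1, had 302 CPM there and 1478 CPM in tumour 2, so the epithelial content or state of the keratin class also differed, and its part in the member values was not tested. Met, a receptor tyrosine kinase gene on chromosome 6 that is not one of the 9, was likewise high in 1 tumour, with 679 CPM in tumour 1 and 19.5 CPM in tumour 2, after 25.4 CPM at 2 weeks and 47.7 CPM at 5 months.

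**Figure D2:**
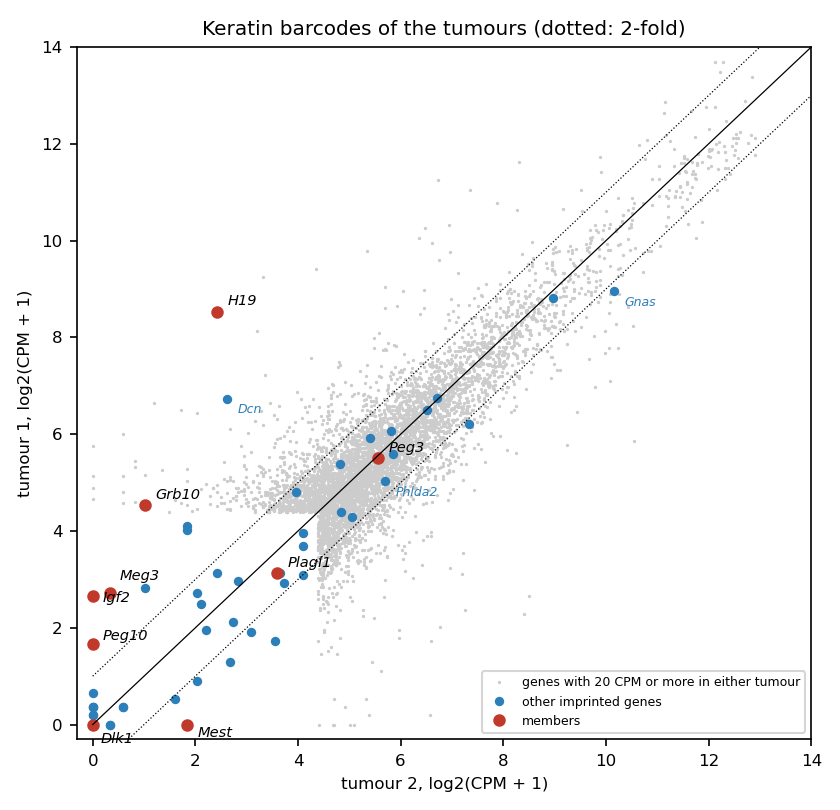
Keratin barcodes of tumour 1 (vertical) against tumour 2 (horizontal) as log2(CPM + 1), for genes with at least 20 CPM in either tumour (grey), the members (red) and the other imprinted genes (blue), with a line of equality and dotted lines 2-fold away. H19 and Grb10 lie above the upper dotted line, Peg3 lies on the line of equality, and Dcn is the other imprinted gene farthest above it.

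The imprinted genes outside the 9 gave the context. A list of 58 of them had a row in the files. By the fold rule, in the tumours against 2 weeks, 3 of 17 tested were lower and 0 higher, beside 17.3% of all genes called in either direction: Dcn, a collagen-binding proteoglycan gene, with 105 CPM in tumour 1 and 5.14 CPM in tumour 2 against 229 CPM at 2 weeks, Inpp5f, with 7.79 and 11.6 CPM in tumour 1 and tumour 2 against 24.9 CPM, and Kcnq1ot1, the long non-coding RNA of the Kcnq1 imprinted cluster, with 106 and 104 CPM against 239 CPM. Against 5 months, Phlda2, a growth-restraining gene of the placenta, was higher at 31.6 CPM in tumour 1 and 50.8 CPM in tumour 2 against 8.03 CPM, and 3 of 15 tested were called beside 10.5% of all genes. Cd81, with 452 and 498 CPM against 1161 CPM, and Gab1, an adaptor of receptor tyrosine kinases, with 14.6 and 16.2 CPM against 33.8 CPM, were lower. The list's median log2 ratio was -0.58 against 2 weeks, beside -0.09 over all genes tested, and 0.04 against 5 months, beside 0.09.

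Between 5 months and 2 weeks, 1 of 15 tested was higher and 4 were lower, beside 30.4% of all genes called. Cd81, a tetraspanin gene, had 1161 CPM at 5 months against 274 CPM at 2 weeks, and Dcn had 49.9 CPM against 229 CPM. Inpp5f, Commd1 and Mcts2 were also lower, with log2 ratios of -1.90, -1.11 and -1.05. Between tumour 1 and tumour 2, Dcn was higher (log2 ratio 4.12) and Gnas, the gene of a stimulatory G protein subunit, and H13 were lower (-1.20 and -1.13), of 14 tested, beside 19.1% of all genes called. Fibroblast markers moved with Dcn between the tumours, with the 7-gene list at 124 CPM in keratin barcodes of tumour 1 and 10.3 CPM in those of tumour 2, but at 2 weeks that list summed to 0.363 CPM while Dcn had 229 CPM.

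No imprinted gene outside the 9 passed the replicated test. The edgeR quasi-likelihood test called 1.08% of 12416 genes in the tumours against 2 weeks and 0.137% against 5 months at an adjusted p under 0.05. Of 34 listed genes tested, 0 were called in either comparison, and DESeq2 also called 0. At an unadjusted p under 0.05 in the edgeR test there were 9 against 2 weeks and 4 against 5 months. Over all 12416 genes the counts at that threshold were 1972 and 1097. The lowest adjusted p against 2 weeks was 0.106 for Slc22a18, a transporter gene of the Kcnq1 cluster, with 4 UMIs (0.577 CPM) in tumour 1 and 0 in tumour 2 against 69 UMIs (12.5 CPM) at 2 weeks. It was called without the low-count filter (5 genes called, with Rasgrf1, Sgce, Usp29 and Dcn), with library sizes in place of TMM factors (3 genes, with Rasgrf1 and Sgce) and without the highest-UMI barcodes (1 gene). The fit has 1 residual degree of freedom, which rests on the spread between the tumours, and treats each premalignant library as varying like them.

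H19 in tumour 1 was carried by a minority of barcodes. Of 441 keratin barcodes, 345 had no H19 UMI, 54 had 1 to 9 and 42 had 10 or more, and those 42 held 93.7% of the class's H19 UMIs. The 10 highest barcodes had 79 to 370 UMIs each and held 59.8%. Without them the level was 152 CPM, still above every other library. The highest keratin barcode had 9 H19 UMIs at 2 weeks, 1 at 5 months and 5 in tumour 2.

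Depth was not equal between the libraries, so each barcode was also thinned to 2000 UMIs. The share of keratin barcodes with an H19 UMI was then 0.89% at 2 weeks (exact binomial 95% interval 0.408 to 1.68), 0.222% at 5 months, 13.6% in tumour 1 (10.6 to 17.2) and 0.475% in tumour 2 (0.0576 to 1.71), where 224, 53, 0 and 0 barcodes were too shallow to enter. Unthinned, the shares were 1.70%, 0.398%, 21.8% and 1.19%. The order of tumour 1 over the rest held both ways.

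**Figure D3:**
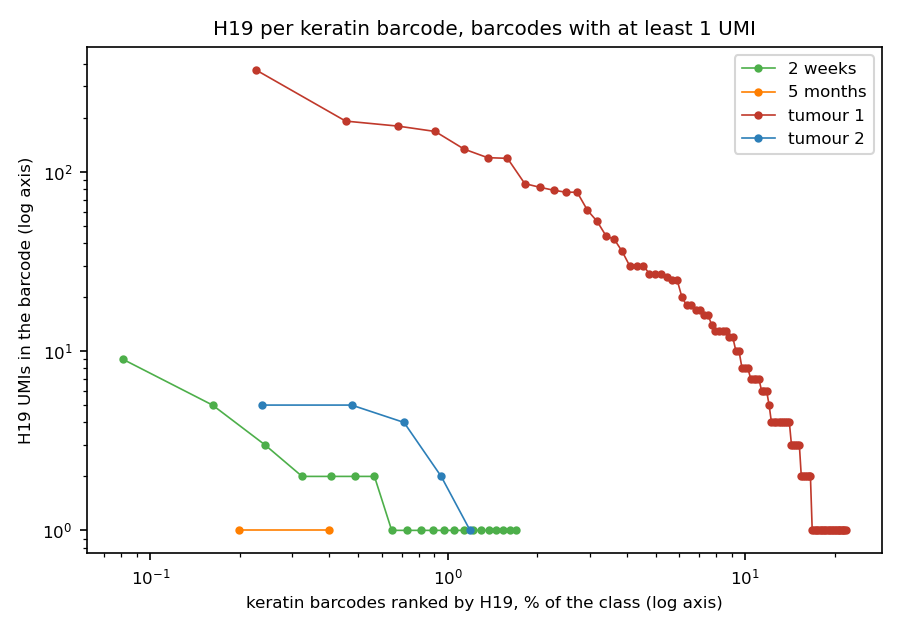
H19 UMIs of single keratin barcodes (vertical log axis) against their rank as a percentage of the class (horizontal log axis), for barcodes with at least 1 H19 UMI in each library. Tumour 1 runs from 370 UMIs down over 21.8% of its barcodes, and the other libraries start at 9 UMIs or fewer and end before 2%.

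Peg3 was spread more evenly. It was seen in 31.8% of keratin barcodes of tumour 1 and 27.6% of those of tumour 2, with at most 23 and 5 UMIs in a barcode, after 3.16% at 2 weeks and 4.77% at 5 months. Thinned to 2000 UMIs the shares were 1.58% at 2 weeks, 1.78% at 5 months, 5.90% in tumour 1 (3.89 to 8.52) and 8.31% in tumour 2 (5.86 to 11.4). The thinned tumour intervals lay above those of the 2 weeks (0.907 to 2.56) and 5 months (0.771 to 3.47) libraries.

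The H19-rich keratin barcodes of tumour 1 differed from the H19-free ones in other members too. With 0, 1 to 9 and 10 or more H19 UMIs, Peg3 stood at 36.4, 46.4 and 93.9 CPM, and Grb10 at 15.9, 31.0 and 51.3 CPM. Igf2 stood at 0.194, 1.03 and 43.8 CPM, and 35 of the class's 37 Igf2 UMIs were in the 42 barcodes with most H19. Those 35 came from only 7 of the 42, with up to 13 in 1 barcode. Plagl1 stood at 8.71, 8.26 and 1.25 CPM, the last from 1 UMI. Dlk1 and Mest had 0 UMIs in each of the 3 bins. Thus Igf2, Peg3 and Grb10 were higher where H19 was most abundant. Plagl1 was lower there, but its interval (0.0317 to 6.98) overlapped that of the barcodes without H19 (6.35 to 11.65).

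By barcode, 8 of the 96 with H19 also had Igf2 (8.33%), against 0.29% of those without H19. Grb10 was seen in 42.7% against 19.7%, and Peg3 in 43.8% against 28.4%. The barcodes with H19 were deeper, with a median of 16918 UMIs against 13098, which raises the chance of seeing any gene and does not enter the CPM above. All of these barcodes came from 1 library and are not replicates, so no test was made.

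Genes that are not imprinted were also read along the same bins, and they were picked after their values were seen. From 0 over 1 to 9 to 10 or more H19 UMIs, Krt8 stood at 1373, 1122 and 729 CPM, Epcam at 331, 224 and 209 CPM and Wfdc18, a whey acidic protein family gene, at 5355, 2109 and 1150 CPM. Vim, the intermediate filament gene of mesenchymal cells, stood at 375, 617 and 683 CPM, and Sparc, a matrix protein gene, at 166, 348 and 534 CPM. Of these genes Krt8, Epcam and Wfdc18 were thus lower, and Vim and Sparc higher, with more H19. Krt14, a basal keratin gene, had no such order, at 188, 115 and 144 CPM. Col1a1 stood at 10.1, 159 and 63.9 CPM, but 1 barcode held 139 of the 154 UMIs of the middle bin and 1 held 44 of the 51 of the last. Met stood at 646, 701 and 868 CPM, and Cdkn2a, a cell cycle inhibitor gene, at 438, 708 and 642 CPM. Both were present throughout and were higher in the last bin than in the first, with intervals apart.

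Leukocyte genes were low in all 3 bins. Ptprc, Cd52, Tyrobp, Laptm5 and Coro1a summed to 135 CPM in keratin barcodes with 0 H19 UMIs, 226 CPM in those with 1 to 9 and 164 CPM in those with 10 or more, against 5634 CPM in Ptprc barcodes. At least 1 such UMI was present in 70.4%, 72.2% and 85.7% of the 3 bins. The 5-gene leukocyte rule therefore removed most of the class, leaving 123 of 441 keratin barcodes and 6 of the 42 H19-rich ones, and lowered the H19 level to 126 CPM.

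**Figure D4:**
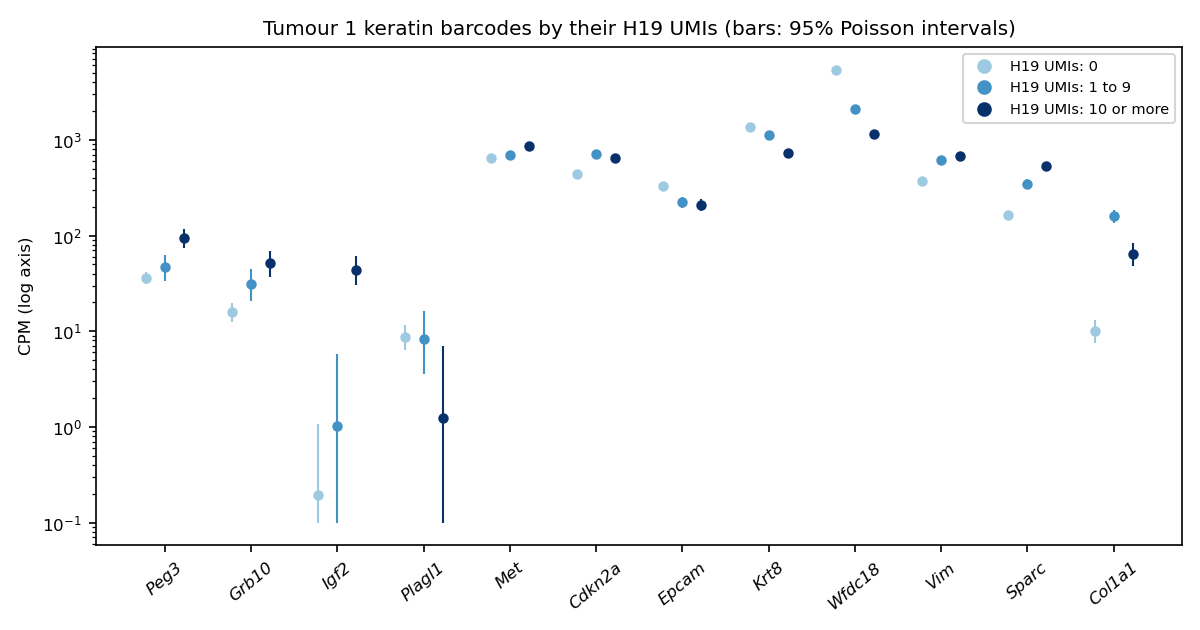
Level in CPM (vertical log axis) of imprinted genes (Peg3 to Plagl1) and other genes (Met to Col1a1) in tumour 1 keratin barcodes with 0, 1 to 9 and 10 or more H19 UMIs (345, 54 and 42 barcodes), with 95% Poisson intervals drawn down to 0.1 CPM. Igf2 goes with the last bin at 43.8 CPM, from 7 of its 42 barcodes, while Krt8, Epcam and Wfdc18 descend over the bins.

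H19 outside the keratin class of tumour 1 sat mostly in barcodes that also had keratin or Cdkn2a UMIs. The Ptprc barcodes had 480 UMIs (41.6 CPM, or 11.3% of the keratin level), and 395 of them were in the 64 Ptprc barcodes that also had 3 or more keratin UMIs, at 357 CPM, 5 of them with 10 or more H19 UMIs. The 1464 Ptprc barcodes with fewer keratin UMIs had 8.14 CPM (6.50 to 10.1), from at most 8 UMIs in a barcode. Relative to keratin barcodes the Ptprc class had 8.23% of the Epcam level, 6.65% of Met and 10.9% of Cdkn2a, beside 11.3% for H19. An H19 UMI was seen in 4.30% of the low-keratin Ptprc barcodes and an Epcam UMI in 3.83% (9.48 CPM). How much of it was free RNA was not tested.

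The other barcodes of tumour 1 held 944 H19 UMIs (180 CPM, 168 to 192). They were split, after their values were seen, by 3 or more UMIs of collagens Col1a1, Col1a2 and Col3a1, by 3 or more of an endothelial list, and the remainder, each by Cdkn2a. Cdkn2a had 499 CPM in keratin barcodes of tumour 1 and 580 CPM in those of tumour 2, beside 4.35 CPM at 2 weeks and 11.8 CPM at 5 months. The 45 remaining barcodes with Cdkn2a had 1370 CPM of H19 and held 466 of the 493 UMIs of the remainder, but only 9 of the 45 had an H19 UMI and 6 had 10 or more. The 519 without Cdkn2a had 8.42 CPM. Among collagen barcodes, the 30 with Cdkn2a had 864 CPM, with 10 or more H19 UMIs in 3 of them, and the 121 without it had 46.2 CPM. The 32 Igf2 UMIs of 1 barcode lay in the remainder with Cdkn2a as well. Endothelial barcodes had 1 UMI of H19. Most H19 UMIs of the other class thus lay in a few barcodes with Cdkn2a. Collagen barcodes with Cdkn2a were deep, with a median of 14059.5 UMIs against 7832 without it, so barcodes holding more than 1 cell were not told apart.

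Over the 12 sums of library and class, the genes whose log2(CPM + 1) followed H19 best were Gm20186 (Pearson r 0.92), Gm10263 (0.90), Drap1 (0.89), Magt1 (0.89) and Smarce1 (0.88), of 8989 genes with at least 20 CPM in a sum. Gm20186 had 63.0 CPM in keratin barcodes of tumour 1 and at most 1.03 CPM outside tumour 1. Sums of 1 library share its preparation and depth, so these values describe the pattern of a single library standing apart. The Ptprc sum of 2 weeks, 1 of the 12, came from 7 barcodes, and there 1 UMI is 49.1 CPM. Across the 441 single barcodes the likest gene reached r 0.35 of 7861 genes, which is weak in sparse counts.

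Meg3 had the opposite place. Other barcodes had 120 CPM (143 UMIs, 101 to 142) at 2 weeks, 16.5 CPM (73 UMIs, 12.9 to 20.8) at 5 months, 271 CPM (1424 UMIs, 257 to 286) in tumour 1 and 50.9 CPM (219 UMIs, 44.3 to 58.1) in tumour 2. Keratin barcodes of the same libraries had at most 5.62 CPM, and in each library the interval of the other class lay above that of the keratin class.

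The fold rule within a library put numbers on this, with the other class over the keratin class of the same sample and so no replicate. At 2 weeks 2 members were tested and both were called higher, Meg3 (log2 ratio 5.86) and Mest (3.56), while 42.6% of 6504 genes were called. In tumour 1, 3 of 4 were called beside 35.0% of 6063 genes: Meg3 was higher (5.36), and H19 (-1.03) and Peg3 (-2.84) were lower. In tumour 2, 2 of 2 were called beside 15.7% of 5869 genes, Meg3 higher (5.37) and Peg3 lower (-1.09). At 5 months no member reached 20 CPM, beside 39.0% of 5838 genes called. In tumour 1 the Meg3 ratio was 6.94 with a keratin minimum of 5 UMIs and 9.44 with the 5-gene leukocyte rule. The H19 ratio turned under that rule, to 2.87, since 679 H19 UMIs stayed in 92 other barcodes and 176 in the 123 keratin barcodes. With a keratin minimum of 5 UMIs it was -0.96 and no longer called, and the Peg3 ratio of tumour 2 was -0.90 with that minimum and -0.55 with the 5-gene rule, not called in either. With the 5-gene rule the ratio was 6.71 for Meg3 at 2 weeks and -1.69 for Peg3 in tumour 1.

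Collagen-bearing barcodes held most of the Meg3 of the other class at 5 months and in both tumours, but not at 2 weeks. There were 5, 23, 151 and 39 of them at 2 weeks, at 5 months, in tumour 1 and in tumour 2. Their Meg3 levels were 2550, 1068, 929 and 959 CPM, and they held 61 of 143, 63 of 73, 1397 of 1424 and 209 of 219 Meg3 UMIs of the other class. At 2 weeks 52 of the 143 UMIs lay in barcodes of a pluripotency split (described below), and 19 in endothelial barcodes. Collagen and endothelial barcodes were set apart first, whatever their pluripotency genes. Outside the pluripotency split, 14 barcodes of the class had 10 or more UMIs of Dppa5a, a gene of pluripotent cells. They were collagen or endothelial barcodes, since the remainder had fewer than 3 such UMIs each. The splits of 2 weeks thus do not part cell kinds cleanly. The remaining barcodes had 55.6, 0.23, 7.05 and 2.50 CPM over the libraries in the same order. Collagen barcodes thus had 929 CPM or more of Meg3 in each library, at 2 weeks from only 5 barcodes. Across other barcodes, the likest genes to Meg3 were Col1a1 (r 0.73), Col1a2 (0.71) and Fstl1 (0.70) in tumour 1, over 743 barcodes and 5421 genes, and Fstl1 (0.78), Serping1 (0.73) and Col1a1 (0.70) in tumour 2, over 625 barcodes and 8211 genes. The points share their library and differ in depth, and no p-value is given.

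Dlk1, the neighbour of Meg3, was rare even there. It had 48 UMIs in all 4 libraries, of which 17 were in other barcodes of tumour 1, and 15 of those lay in collagen barcodes (9.97 CPM, 5.58 to 16.5). At 5 months its 10 UMIs in other barcodes all lay outside the collagen and endothelial splits.

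Other members shared the collagen barcodes in part. In those of tumour 1, Grb10 had 55.2 CPM (43.9 to 68.4), Plagl1 37.9 CPM (28.7 to 49.1), Peg10 11.96 CPM (7.09 to 18.9) and Peg3 13.3 CPM (8.12 to 20.5). Grb10 had 82.6 CPM (48.9 to 131) in those of tumour 2, where keratin barcodes had 1.03 CPM. Grb10 of collagen barcodes was thus seen in both tumours, and that of keratin barcodes in tumour 1. In tumour 2, 89 of the 91 Peg3 UMIs in other barcodes were in the remainder (22.3 CPM, 17.9 to 27.4). Of these, 71 were in the 257 barcodes with Cdkn2a (29.0 CPM) and 18 in the 320 without (11.6 CPM). The 39 collagen barcodes of tumour 2 had 2 Peg3 UMIs (9.17 CPM, 1.11 to 33.1). That interval overlapped those of the remainder and of the collagen barcodes of tumour 1.

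Mest was an endothelial barcode gene in tumour 1. The 28 endothelial barcodes held 54 of 65 Mest UMIs of the other class, at 265 CPM (199 to 345), and had 73.5 CPM of Grb10 (41.1 to 121). In tumour 2 the 8 endothelial barcodes held 4 of 20 Mest UMIs, at 51.0 CPM (13.9 to 131), and 14 lay in the remainder, 13 of them in barcodes with Cdkn2a. Most Mest UMIs of the other class in tumour 2 thus lay outside the 8 endothelial barcodes, but the level there was not lower. The 577 remaining barcodes had 3.501 CPM of Mest (1.914 to 5.875), an interval below that of the endothelial ones. The 39 collagen barcodes had 2 UMIs (9.173 CPM, 1.111 to 33.14), and that interval overlapped the endothelial one. The endothelial level of tumour 2 rests on only 4 UMIs.

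At 2 weeks the other class was of a different kind. A total of 97 of its 211 barcodes had 3 or more UMIs of Pou5f1, Dppa5a, Tdgf1, Utf1, L1td1 and Sall4, genes of pluripotent cells. They had fewer than 3 UMIs of the collagens and fewer than 3 of the endothelial list, a split added after the values were seen. Dppa5a had 4439 CPM and Pou5f1 838 CPM in the 97, against 25.4 and 4.35 CPM in keratin barcodes of that library. The other 114 barcodes of the class had 2035 and 380 CPM, so the 97 are not all barcodes with these genes. The labels name sorted mammary epithelial cells and no such cells, and their source was not tested.

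Some imprinted genes were higher in these 97 barcodes than in keratin barcodes and others were not. Mest had 50.7 CPM (37 of the 51 Mest UMIs of the class, 35.7 to 69.9), against 2.72 CPM in keratin barcodes, and Meg3 had 71.3 CPM (53.2 to 93.5) against 1.09 CPM. Among imprinted genes outside the 9, Phlda2 had 243 CPM against 16.2 CPM, Snrpn, a splicing protein gene, 86.4 CPM against 8.71 CPM, Ddc 63.1 CPM against 0.726 CPM and Slc38a4, an amino acid transporter gene, 54.8 CPM against 0.363 CPM. Peg3 had 4.11 CPM (0.848 to 12.02) against 7.98 CPM, and Plagl1 had 0 UMIs (upper limit 5.06 CPM) against 9.07 CPM. H19, Igf2 and Dlk1 were not high either, with 0 H19 and 0 Igf2 UMIs in the whole other class at 2 weeks and 2 of Dlk1. In the other 114 barcodes of the class, Mest had 30.4 CPM (16.6 to 51.1) and Meg3 198 CPM (159 to 243). Phlda2 had 117 CPM there, Snrpn 56.5, Ddc 28.3 and Slc38a4 26.1 CPM. These genes were thus above their keratin levels there too, and Meg3 was higher than in the 97. Over the whole other class at 2 weeks, Slc38a4, Ddc, Phlda2 and Snrpn had the highest ratios of 7 imprinted genes called higher, of 20 tested, beside 42.6% of all genes called in either direction. Another 5 were called lower, led by Blcap (7.57 CPM against 42.6 CPM in keratin barcodes), Pon2 (17.7 against 77.3 CPM), H13 (42.0 against 114 CPM) and Inpp5f (10.1 against 24.9 CPM).

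**Figure D5:**
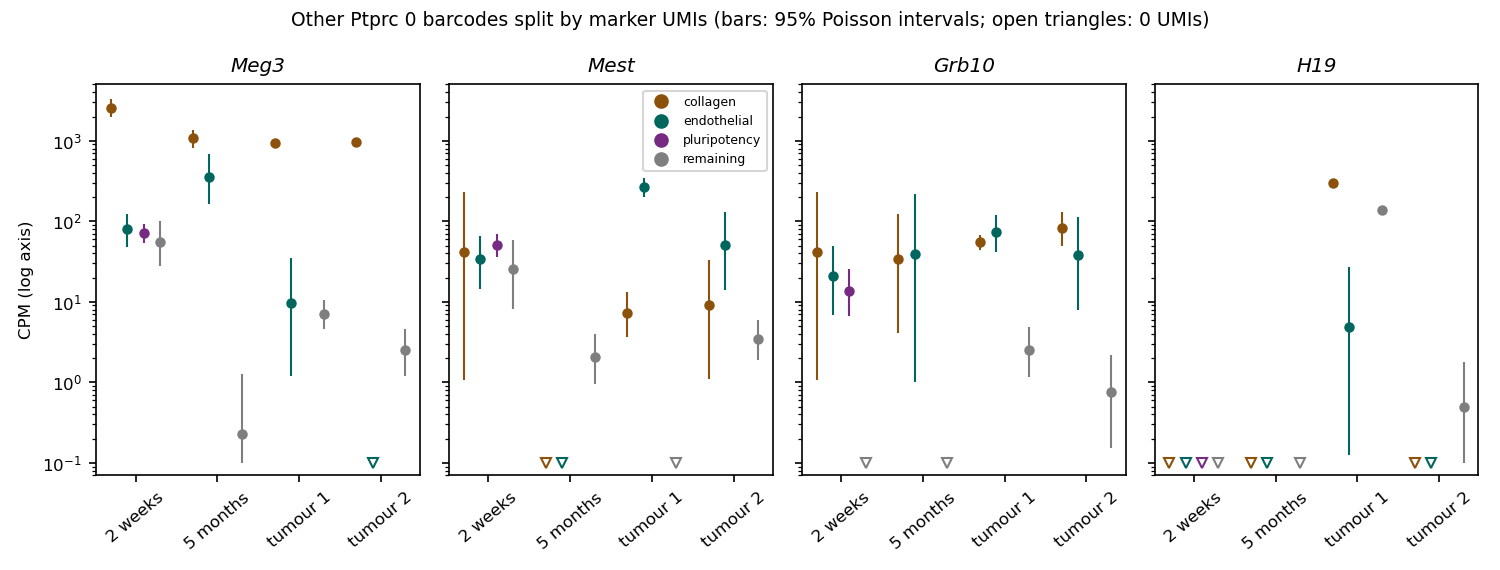
Level in CPM (vertical log axis) of Meg3, Mest, Grb10 and H19 by library (horizontal axis) in other Ptprc 0 barcodes split by collagen, endothelial and, at 2 weeks, pluripotency marker UMIs, with the remainder in grey, 95% Poisson intervals drawn down to 0.1 CPM and open triangles for 0 UMIs. Meg3 lies between 929 and 2550 CPM in collagen barcodes of every library, and Mest reaches 265 CPM in endothelial barcodes of tumour 1.

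In the later libraries the imprinted genes outside the 9 were called at about the share of all genes. At 5 months 2 were higher in other barcodes and 3 lower of 13 tested (39.0% of all genes were called), in tumour 1 the counts were 2 and 2 of 13 (35.0%), and in tumour 2 they were 2 and 1 of 14 (15.7%). Dcn was higher in other barcodes of all 3, with 271 CPM against 49.9 CPM at 5 months, 499 CPM against 105 CPM in tumour 1 and 145 CPM against 5.14 CPM in tumour 2. Phlda2 was lower in other barcodes of both tumours, with 1.33 CPM against 31.6 CPM in tumour 1 and 15.3 CPM against 50.8 CPM in tumour 2. Pon3 was higher in other barcodes at 5 months (29.2 CPM against 8.45 CPM) and in tumour 1 (42.3 against 15.1 CPM), and Cdkn1c, a cell cycle inhibitor gene, in tumour 2 (26.5 against 12.3 CPM). Gab1 (2.03 against 33.8 CPM), Cd81 (224 against 1161 CPM) and Blcap (12.7 against 36.8 CPM) were lower at 5 months, and Zrsr1 (9.90 against 27.1 CPM) in tumour 1.

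RefSeq promoter windows (250 bases before to 50 after a start, GRCm38.p6) were found for 7 of the 9 members. Those of Peg3, the member higher in both tumours, and Meg3, the member of the collagen barcodes, are printed, with motif letters of proteins that act on imprinted genes. The Peg3 window, chr7:6730370-6730669 on the minus strand, holds GGGGCCCC (capitals), which lies within the site known for PLAGL1, at base 50. These letters read the same on both strands and occur in 1.08% of 32851 windows. The Meg3 window, chr12:109540746-109541045 on the plus strand, holds GCGGCA (capitals) at base 61. Read on the minus strand this is TGCCGC, the core bound by ZFP57 when methylated, and 11.6% of windows hold that core on either strand. Some but not all windows of Grb10, Igf2 and Mest hold it too, as does that of Plagl1. The other Meg3 window, chr12:109545148-109545447, does not, nor do those of Dlk1 and Peg3. GCCATNTT, the form of the YY1 motif repeated in Peg3, was found in none of the members' windows and in 6.05% of all. A match describes letters and is no measured site.
Peg3: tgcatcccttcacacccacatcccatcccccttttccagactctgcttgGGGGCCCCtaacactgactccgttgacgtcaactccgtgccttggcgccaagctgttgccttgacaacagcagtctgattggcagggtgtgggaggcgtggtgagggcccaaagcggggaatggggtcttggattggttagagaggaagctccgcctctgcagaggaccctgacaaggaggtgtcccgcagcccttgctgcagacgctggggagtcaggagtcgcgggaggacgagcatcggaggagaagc
Meg3: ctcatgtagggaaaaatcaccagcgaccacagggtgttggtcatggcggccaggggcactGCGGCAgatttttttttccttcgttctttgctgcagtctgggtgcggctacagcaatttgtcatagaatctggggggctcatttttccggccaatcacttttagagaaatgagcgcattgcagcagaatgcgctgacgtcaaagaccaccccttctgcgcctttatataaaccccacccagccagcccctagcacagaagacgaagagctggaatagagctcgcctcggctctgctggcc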

How the data were processed

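The deposited values are UMI counts per gene and barcode. Per the labels the authors used version 2 of the Chromium 3′ chemistry, and the submitters' processing notes name Cell Ranger, mm10 and GRCm38, with no version of the program. Genome prefixes were removed, and 694 genes listed for the 5 months library alone (4.59% of its UMIs) were left out. No barcode was removed and doublets were left in; an alternative left out the highest-UMI barcodes. UMIs were summed per library and class and scaled to CPM. Poisson and Clopper-Pearson 95% intervals used scipy 1.17.1. The tumours were tested against each premalignant library with edgeR 4.0.16 (filterByExpr, TMM, quasi-likelihood, 3 groups, Benjamini-Hochberg at 0.05) on summed keratin barcodes, with DESeq2 1.42.0 as an alternative, and the code was tested on simulated data. Other alternatives changed the barcode filter, keratin minimum, leukocyte rule, scaling, low-count filter, tumour used and thinning depth. All 9 members were named, with the 5 genes likest to H19 and, per comparison and direction, up to 4 other imprinted genes of largest ratio among those called. The members and lists were chosen with earlier results of these data known.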

Additional observations from a re-analysis of the deposited data

How the results depend on the processing

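The calls of the test changed with most settings. The edgeR counts of 134 genes against 2 weeks and 17 against 5 months became 0 and 0 with barcodes of at least 500 genes and at most 10% mitochondrial UMIs, 297 and 57 with a keratin minimum of 5 UMIs, 446 and 103 with the 5-gene leukocyte rule, 481 and 92 without the highest-UMI barcodes, 1255 and 543 with no filter beyond 1 UMI, 698 and 189 with library size alone, and 549 and 137 by DESeq2. The imprinted genes outside the 9 called against 2 weeks numbered 1 without the highest-UMI barcodes, 5 with no filter and 3 with library size alone, and against 5 months 1 with no filter. With 1 tumour left out, and no test, the fold rule gave 1909 to 2001 genes and 1 to 3 members against 2 weeks (1117 genes and 1 member with both), and 1178 to 1584 genes and 1 to 3 members against 5 months (649 and 1). Between other and keratin barcodes, the 5-gene rule called 2 members at 5 months (0 before), 6 in tumour 1 (3) and 1 in tumour 2 (2), a keratin minimum of 5 called 1 in tumour 2, and the H19 ratio of tumour 1 turned to 2.87. At 5 months that 5-gene rule called 2275 of all genes, the same number as before. For the tumours the share of all genes under these settings is not given here. These member counts are thus no result about the members. Shares thinned to 1000 UMIs were 9.75% for H19 in tumour 1 and 4.75% for Peg3 in tumour 2. Unthinned they were 21.8% for H19 and 31.8% for Peg3 in tumour 1, 27.6% for Peg3 in tumour 2 and 14% for Meg3 in other barcodes of tumour 1. The causes were not tested, apart from fewer UMIs in thinned barcodes and fewer samples with a tumour left out. H19 in keratin barcodes of tumour 1 ranged from 126 CPM (5-gene rule) to 419 CPM (without the highest-UMI barcodes), and its level in Ptprc barcodes from 14.3 to 145 CPM under the same alternatives in the other order. Of the members' log2 ratios, 57 values kept their direction and call, 3 moved and 1 reversed, but the size of a kept one could change, as for H19 between the tumours (3.79 with the 5-gene rule, 6.11 before). No paired analysis was possible because the premalignant groups have 1 library each.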
